A study of Homo sapiens with 20 samples.

Results

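The 9 genes HLA-B, HLA-C, HLA-E, B2M, TAP1, TAP2, TAPBP, PSMB8 and PSMB9 supply MHC class I antigen presentation, and they were followed here in Jurkat T lymphoblasts with and without the surface receptor CD47. They were selected by gene name alone, as the named class I chains, peptide transport genes and immunoproteasome subunits, and are 9 of 60719 genes in the count table. Bulk mRNA of 20 samples had been sequenced, 10 from wild-type Jurkat cells (WT) and 10 from JinB8, a somatic mutant of Jurkat deficient in CD47 (CD47-). Jurkat is an established human T cell leukemia line. JinB8 is a single mutant line, so the loss of CD47 cannot be told apart from anything else that differs between the lines. Each line was left untreated (UT) for 1 h. Otherwise it was exposed for 1, 3 or 6 h to immobilized antibodies against CD3 and CD28 (CD3_CD28), to the same antibodies plus thrombospondin-1, a CD47 ligand (CD3_CD28_TSP1), or to thrombospondin-1 alone (TSP1). Thrombospondin-1 was used at 1 μg/mL and the CD28 antibody at 4 μg/mL. Both lines were plated in HITES medium, a serum-free medium, for all treatments. Each combination of line, treatment and time was plated and sequenced once, with no repeat of a condition. The p-values therefore measure the spread between these samples, part of which may be technical. In the comparison of all libraries of the lines this spread also holds treatment and time. In the comparisons by time it also holds treatment.

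Nearly all nucleated cells display peptides on MHC class I, which CD8 T cells read and which natural killer cells check for. A heavy chain (such as the polymorphic HLA-B and HLA-C, or the less variable HLA-E) folds with the invariant light chain beta-2-microglobulin, the product of B2M. Proteasomes cut cytosolic proteins into peptides, and the interferon-inducible subunits PSMB8 and PSMB9 replace standard catalytic subunits to form the immunoproteasome. TAP1 and TAP2 form the transporter that carries peptides into the endoplasmic reticulum, where tapasin, the product of TAPBP, holds empty class I molecules at the transporter for loading.

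The libraries held 20483642 to 31737616 estimated counts in WT and 16107921 to 28525524 in CD47- cells. CD47 itself, reported first as the check of the labels, was lower in CD47- cells (147 ± 12.6 against 316 ± 42.1 CPM, SD, n = 10 each, edgeR adjusted p = 1.05e-10), and the lowest WT library (253 CPM) lay above the highest CD47- library (165 CPM). CPM is a gene's count relative to its library total, scaled by TMM so that libraries can be compared. The CD47- CD3_CD28_TSP1 library at 3 h was the shallowest and correlated least with its line (median r = 0.968 of log2 CPM), and it is named below where it moved a result. All 9 T cell markers were detected in both lines, with summed levels of 1937 to 2733 CPM (WT) and 1637 to 2621 CPM (CD47-). Within that list 5 were higher and 2 lower in CD47- cells, including TRAC, a T cell receptor chain, at 21.8 CPM against 184 CPM in WT. The 4 B cell markers summed to 34.0 to 54.1 CPM (WT) and 4.35 to 10.4 CPM (CD47-), nearly all of it CD79A, an antigen receptor chain of B cells. The 4 myeloid markers summed to at most 1.76 CPM, the 4 natural killer cell markers to at most 12.4 CPM and the 5 fibroblast or epithelial markers to at most 6.78 CPM. No marker in these lists was at 0 in every library, and the part of these differences in the results below was not tested.

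Comparing all libraries of the lines asked which of these genes depend on line, whatever the treatment or time. Of the 9 genes, 7 were lower in CD47- cells and none was higher, while 40.4% of all 16327 genes tested differed in either direction, 20.6% being lower and 19.8% higher (edgeR, adjusted p under 0.05). HLA-B and B2M differed most, being 2.67-fold and 2.35-fold lower. PSMB9, HLA-E, TAP1, HLA-C and TAPBP followed with differences of 1.67-, 1.59-, 1.51-, 1.42- and 1.36-fold, and TAP2 and PSMB8 did not pass the test. The median log2 difference of the 9 genes was -0.60, against -0.0066 for all genes tested. For HLA-B, B2M, TAP1 and PSMB9 the 10 WT and 10 CD47- values did not overlap. Such separation in the lower direction was seen in 5.48% of all genes. With library totals as the scaling, the median of all genes moved by 0.11 on the log2 scale and 65.4% of the genes called were higher, against 49.0% with TMM. The directions of the 7 members did not change, and TAPBP was no longer called. In bulk RNA, fewer cells carrying a transcript and less of it per cell cannot be told apart.

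**Figure D1:**
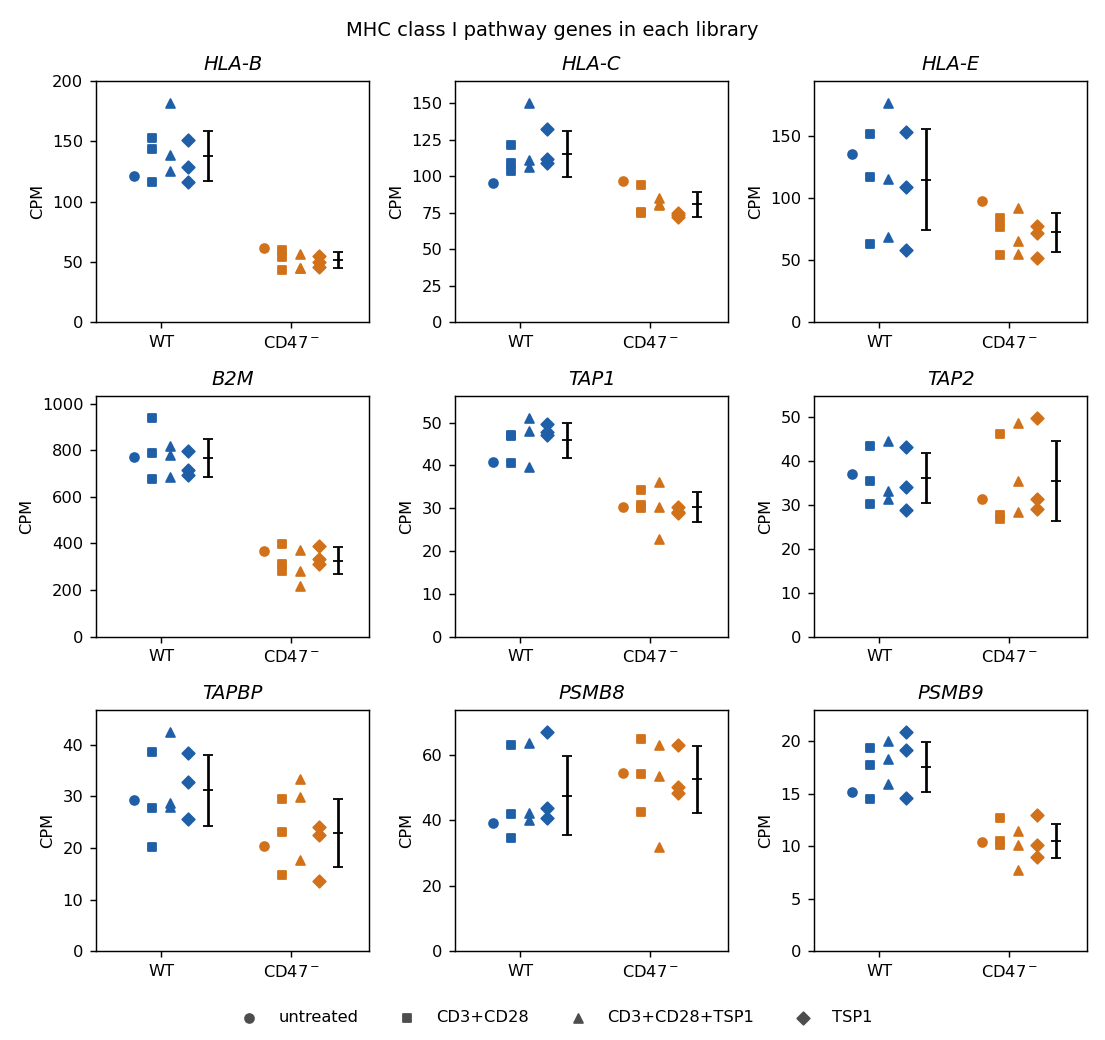
Level of each gene (CPM, linear axis from 0) in each of 20 libraries, by line (WT blue, CD47- orange) and treatment (symbol), with the mean and SD of 10 libraries at the right of each line. The WT and CD47- points are apart for HLA-B, B2M, TAP1 and PSMB9 and intermingle for TAP2 and PSMB8.

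Of the class I chains, B2M had the highest level per kilobase of transcript. It is the light chain that every class I heavy chain needs to leave the endoplasmic reticulum. B2M (ENSG00000166710) lies on the plus strand of chromosome 15, at chr15:44711358-44718851 (GRCh38). Its level in WT ranged from 676 CPM through a median of 775 to 939.8 CPM, and in CD47- cells from 216 through 324 to 396 CPM. The means were 766 ± 79.97 and 326 ± 57.2 CPM (SD, n = 10 each). The lowest CD47- value came from the shallowest library, and the highest CD47- value was still well under the lowest WT value. On the log2 scale B2M fell by 1.23 (SE 0.097, edgeR adjusted p = 6.24e-10), and it was lower in CD47- cells in all 10 pairs of libraries that share a treatment and time.

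HLA-B, a heavy chain that presents peptides to CD8 T cells, differed most. HLA-B (ENSG00000234745) occupies chr6:31353872-31367067 on the minus strand. Its WT values ran from 116 through a median of 134 to 182 CPM, and its CD47- values from 43.1 through 51.8 to 61.9 CPM. The means of 138 ± 20.6 and 51.6 ± 6.74 CPM (SD, n = 10 each) gave a log2 difference of -1.42 (SE 0.091, edgeR adjusted p = 1.98e-11). The difference had the same direction in all 10 matched pairs, with log2 values from -1.69 to -0.97.

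HLA-C, which also presents peptides and is the main heavy chain read by killer-cell immunoglobulin-like receptors, differed less. HLA-C (chr6:31268749-31272130, minus strand) had 95.5, 110.2 and 150.1 CPM as its lowest, median and highest WT values. The corresponding CD47- values were 72.2, 77.9 and 96.5 CPM. The ranges overlapped through the untreated pair, in which the WT library had 95.5 and the CD47- library 96.5 CPM, and the other 9 pairs were lower in CD47- cells. The log2 difference was -0.51 (SE 0.080, edgeR adjusted p = 1.99e-05). In the unactivated pairs alone (UT and TSP1) it was -0.48 and the call was lost (edgeR adjusted p = 0.0511).

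HLA-E, the heavy chain that displays leader peptides of other class I chains to the CD94 and NKG2 receptors, varied most within a line among the class I chains. HLA-E (chr6:30489509-30494194, plus strand) ranged from 58.3 through a median of 117 to 177 CPM in the WT libraries, and its CD47- values ran from 52.1 through 74.1 to 97.4 CPM. It was lower in CD47- cells in all 10 matched pairs although the ranges overlapped. The log2 difference was -0.66 (SE 0.19, edgeR adjusted p = 0.00665). With the 10 matched pairs as a block it was -0.60 (SE 0.085). The call was lost in the 6 activated pairs alone (log2 -0.68, adjusted p = 0.0508) and in the 4 unactivated pairs alone (log2 -0.59, adjusted p = 0.204).

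Reads of HLA genes are hard to assign because the genes are nearly identical over long stretches. Estimated counts of HLA-B and HLA-C were not whole numbers (by more than 0.005) in 100% of libraries, and those of HLA-E in 60%, which shows reads divided between genes. The counts of all 18 genes named HLA and 1 letter were therefore also summed. The sum was 362 ± 38.6 CPM in CD47- cells against 519 ± 86.0 CPM in WT (SD, n = 10 each), a log2 difference of -0.52 (SE 0.090, edgeR adjusted p = 6.43e-05), which needs no assignment between these genes. HLA-B made up 26.6% ± 0.963 of the summed HLA counts in WT and 14.2% ± 0.871 in CD47- cells. HLA-C made up 22.4% ± 2.41 and 22.3% ± 1.47 (SD, n = 10 each). The ratio of HLA-B to HLA-C counts was 1.20 in WT, with a range of 1.07 to 1.38, and 0.638 in CD47- cells, with a range of 0.533 to 0.745. B2M counts per summed HLA count were 1.496 ± 0.165 in WT and 0.903 ± 0.153 in CD47- cells.

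The sequences upstream of HLA-B, HLA-C and B2M are shown because these genes share a family of promoter elements and differed by unlike amounts. RefSeq (GRCh38.p14) start sites and the 250 bases before them were available for 8 of the 9 genes. HLA-E is the exception. The letters searched, on both strands of windows from 250 bases before to 50 after each start, were TTTC, any 2 bases and TTTC again (interferon-stimulated response element, ISRE), GGGG followed directly by ATTCCC (kB site), TGACG (core of the X2 and CRE elements), CCAAT (Y box) and GGGCGG (SP1). These occurred in 3.57%, 0.0769%, 24.6%, 34.6% and 45.0% of 35116 human promoter windows, respectively. In the sequences below, capitals mark matches to the ISRE, kB, TGACG and CCAAT letters or their reverse complements. The windows are chr6:31357180-31357429 (minus strand) for HLA-B, chr6:31272093-31272342 (minus strand) for HLA-C and chr15:44711267-44711516 (plus strand) for B2M.
HLA-B: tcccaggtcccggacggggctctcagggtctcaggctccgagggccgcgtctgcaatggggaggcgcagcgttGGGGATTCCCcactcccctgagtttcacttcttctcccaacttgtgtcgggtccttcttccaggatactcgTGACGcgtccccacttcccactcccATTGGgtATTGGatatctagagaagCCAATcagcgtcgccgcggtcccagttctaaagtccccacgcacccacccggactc
HLA-C: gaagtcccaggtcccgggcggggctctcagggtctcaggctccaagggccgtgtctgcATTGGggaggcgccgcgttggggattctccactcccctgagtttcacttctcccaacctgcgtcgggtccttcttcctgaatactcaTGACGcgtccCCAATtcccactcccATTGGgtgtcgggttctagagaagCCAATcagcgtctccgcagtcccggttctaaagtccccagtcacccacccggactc
B2M: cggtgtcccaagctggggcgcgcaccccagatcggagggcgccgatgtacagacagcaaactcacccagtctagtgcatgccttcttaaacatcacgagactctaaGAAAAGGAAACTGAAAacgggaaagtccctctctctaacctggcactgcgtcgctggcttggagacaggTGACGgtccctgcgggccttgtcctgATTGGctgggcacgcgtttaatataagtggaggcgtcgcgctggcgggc
HLA-B and HLA-C were identical in 226 of 254 aligned columns (89.0%). Both hold TGACG and CCAAT matches at nearly the same distance from the start. The kB letters begin 177 bases before the start of HLA-B. The aligned 10 letters of HLA-C differ by C9T, counted from 1 at the 5′ end of the HLA-B letters, so HLA-C has no exact match. The B2M window holds 2 ISRE matches that overlap each other, 144 and 138 bases before the start, and no match to the kB letters. Other forms of the kB site were not searched in any window, so their presence or absence is not known from this search. A match to these letters is a description of the reference sequence only.

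The peptide transporter and immunoproteasome genes lie side by side in the class II region, and the genes of each functional pair were unlike. TAP1 and PSMB9 were lower in CD47- cells, and TAP2 and PSMB8 did not pass the test. On GRCh38 the genes run in the order TAP2 (chr6:32821833-32838739, minus strand), PSMB8 (chr6:32840717-32844679, minus strand), TAP1 (chr6:32845209-32853816, minus strand) and PSMB9 (chr6:32844136-32859851, plus strand). The annotated PSMB9 span overlaps both PSMB8 and TAP1, PSMB8-AS1 overlaps all of them but TAP2, and the strand setting of the counting is not given in the sources used here. Whether reads from these overlaps were told apart by strand is therefore not known.

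TAP1, 1 chain of the transporter, had 39.6, 47.1 and 51.2 CPM as lowest, median and highest WT values. In CD47- cells these were 22.8, 30.3 and 36.1 CPM, all below every WT value. The log2 difference was -0.60 (SE 0.075, edgeR adjusted p = 8.94e-07). PSMB9, the beta1i subunit that takes the place of PSMB6, had 14.5, 18.0 and 20.9 CPM in WT, against CD47- values of 7.71, 10.3 and 13.0 CPM, again with no overlap. Its log2 difference was -0.74 (SE 0.099, edgeR adjusted p = 2.44e-06). Both genes were lower in CD47- cells in all 10 matched pairs. Their lowest CD47- values came from the same library, CD3_CD28_TSP1 at 3 h.

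TAP2, the other transporter chain, had 28.9, 34.8 and 44.6 CPM in WT, against CD47- values of 26.9, 31.4 and 49.9 CPM, as lowest, median and highest values. It was lower in 5 and higher in 5 of the 10 matched pairs. The log2 difference of -0.03 (edgeR adjusted p = 0.889) had an interval of 2 SE from -0.28 to 0.23, and its sign changed with scaling (0.08 with library totals and 0.01 with upper-quartile factors). TAP2 counts were not whole, by the same tolerance, in 95% of libraries, and another annotated gene (ENSG00000250264) overlaps it on the same strand. PSMB8, the beta5i subunit that takes the place of PSMB5, had 34.5, 42.0 and 66.9 CPM in WT, against CD47- values of 31.8, 53.8 and 64.9 CPM. It was higher in CD47- cells in 7 of 10 pairs, with a log2 difference of 0.14 (edgeR adjusted p = 0.429) and an interval from -0.13 to 0.42. TAP1 counts per TAP2 count were 1.28 in WT and 0.872 in CD47- cells, and PSMB9 counts per PSMB8 count 0.376 and 0.202. Both ratios were lower in CD47- cells in all 10 pairs, a comparison added after the values were seen and given without a test.

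**Figure D2:**
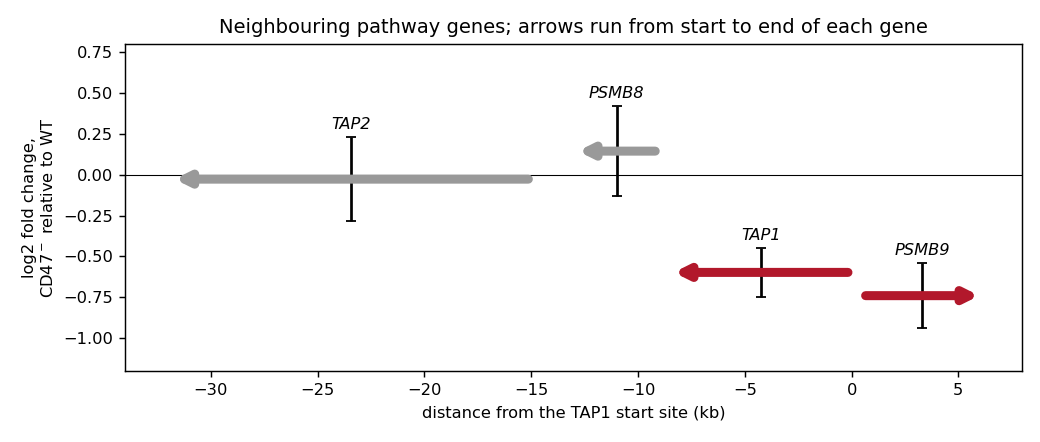
Log2 difference between the lines (vertical axis, bar of 2 SE) for the 4 neighbouring genes against distance from the TAP1 start site in kb (horizontal axis), each arrow running from the start to the end of a RefSeq gene. Red genes passed the test: TAP1 (-0.60) and PSMB9 (-0.74) start next to each other and point apart, while TAP2 (-0.03) and PSMB8 (0.14), in grey, lie near 0.

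TAP1 and PSMB9 are transcribed away from each other from RefSeq start sites 488 bases apart, and their upstream sequences are shown because they face each other and both genes were lower. Capitals mark the same letters as above. The windows are chr6:32853705-32853954 (minus strand) for TAP1 and chr6:32853942-32854191 (plus strand) for PSMB9.
TAP1: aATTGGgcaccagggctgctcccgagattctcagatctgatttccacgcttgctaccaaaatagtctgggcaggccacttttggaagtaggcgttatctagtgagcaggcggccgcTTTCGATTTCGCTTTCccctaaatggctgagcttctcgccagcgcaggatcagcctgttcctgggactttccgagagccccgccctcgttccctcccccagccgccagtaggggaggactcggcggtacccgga
PSMB9: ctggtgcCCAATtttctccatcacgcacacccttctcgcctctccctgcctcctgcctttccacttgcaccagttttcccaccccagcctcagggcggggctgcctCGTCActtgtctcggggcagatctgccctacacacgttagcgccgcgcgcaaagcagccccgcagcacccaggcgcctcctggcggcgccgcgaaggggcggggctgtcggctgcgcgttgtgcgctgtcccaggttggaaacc
This TAP1 window holds 2 overlapping ISRE matches at 134 and 128 bases before the start. A second RefSeq start of TAP1 has none in its window. The PSMB9 window has no ISRE match but holds TGACG on the reverse strand and CCAAT. Among the genes that did not pass the test, TAP2 has an ISRE match 58 bases before its start, and 1 of the 2 PSMB8 start sites has an ISRE match that begins 4 bases before it. Among the genes that were lower, TAPBP has 2 ISRE matches, 20 and 14 bases before its start. HLA-B and HLA-C, also lower, have none in their windows, like PSMB9. Whether these letters bear on the levels was not tested.

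TAPBP (chr6:33299694-33314284, minus strand), which encodes tapasin, was the least secure of the 7 differences. Its WT values were 20.3, 29.1 and 42.5 CPM and its CD47- values 13.7, 22.8 and 33.3 CPM (lowest, median and highest). It was lower in CD47- cells in 9 of 10 pairs. The log2 difference was -0.45 (SE 0.16, edgeR adjusted p = 0.0274). The call was lost without CD47- CD3_CD28_TSP1 at 1 h (log2 -0.41, adjusted p = 0.0503), WT CD3_CD28 at 6 h (-0.39, 0.0588) or WT CD3_CD28_TSP1 at 6 h (-0.39, 0.0541), and with library totals as the scaling (-0.33, 0.139). The call was also lost in the activated pairs alone (-0.31, adjusted p = 0.336) and in the unactivated pairs alone (-0.62, 0.0632). With the 10 matched pairs as a block the log2 difference was -0.47 (adjusted p = 0.000434).

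Levels can be compared between genes only per length of transcript. Per kilobase of expressed transcript, B2M led in both lines with 791 ± 84.3 (WT) and 339 ± 59.2 (CD47-) CPM (SD, n = 10 each). In WT cells HLA-B had 83.5, HLA-C 79.1, HLA-E 49.6, PSMB8 37.7, TAP1 21.2, PSMB9 16.6, TAPBP 9.98 and TAP2 7.16 CPM per kilobase. HLA-B and HLA-C overlapped in WT, with ranges of 70.3 to 115 and 70.1 to 99.8 CPM per kilobase. In CD47- cells they were apart, at 25.6 to 36.9 and 50.7 to 67.6 CPM per kilobase, and PSMB8, at 42.3 CPM per kilobase on average, had a higher mean than HLA-B (31.5) and HLA-E (31.4). TAPBP and TAP2 were the lowest pair in both lines and overlapped within each.

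Other genes of the pathway, taken from lists set by function, changed in part. Their counts stand beside the same share over all genes, 40.4% called, with 20.6% lower and 19.8% higher. Of the 3 other immunoproteasome genes, 2 were lower in CD47- cells: PSME1 (log2 -0.62) and PSME2 (-0.31), the chains of the PA28 activator. PSMB10, the remaining inducible catalytic subunit, had a log2 difference of -0.37 and did not pass the test. Of the 3 standard catalytic subunits that these replace, PSMB6 was lower (42.5 ± 8.98 CPM against 73.3 ± 18.9 CPM in WT, SD, n = 10 each, log2 -0.79), and PSMB5 (0.17) and PSMB7 (-0.03) did not pass. Of the 4 chaperones of class I loading, CALR (calreticulin, log2 -0.71) and PDIA3 (ERp57, -0.45) were lower.

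Of 7 peptide-trimming enzymes, the endoplasmic reticulum aminopeptidases ERAP2 and ERAP1 were lower and the other 5 did not pass, against 40.4% of all genes called and 20.6% lower. ERAP2 had 47.3 ± 10.8 CPM in CD47- cells against 118 ± 17.5 CPM in WT (SD, n = 10 each, log2 -1.32, edgeR adjusted p = 9.59e-09), a difference of a size between those of HLA-B and B2M. ERAP1 differed by -0.36. Of 6 class I-like genes 4 were tested, and FCGRT, the neonatal Fc receptor chain that pairs with beta-2-microglobulin, was lower (-0.30), while CD1D (-0.25) and HLA-F (-0.13) did not pass.

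Regulators of class I transcription did not move in 1 direction. Of 15 tested, 5 were higher and 2 lower in CD47- cells, a share near that of all genes (40.4%). NLRC5, the transactivator that acts on class I promoters, was higher (23.4 ± 1.68 CPM against 11.8 ± 1.98 CPM in WT, SD, n = 10 each, log2 0.99, edgeR adjusted p = 6.54e-09). Its lowest CD47- value, 19.99 CPM, exceeded its highest WT value, 14.6 CPM. NFYB (log2 -0.61) and RFXAP (-0.78), subunits of the Y-box and X-box complexes, were lower, while another subunit of each was higher, NFYC (0.39) and RFXANK (0.41), the last pair named after their values were seen. The remaining higher regulators were STAT2 (0.69) and RELA (0.18), and NFYA and RFX5 did not pass. These genes too were named after their values were seen. Of the 4 interferon receptor genes and the kinase JAK1, IFNGR2 was higher (0.50), IFNAR1 was lower (-0.40), and the other 3, among them IFNGR1 (0.18), did not pass. Of 12 class II genes 7 reached the count minimum, of which 5 were higher and 1 lower, all at low levels: the most changed, HLA-DOA and HLA-DMB, had 2.03 and 1.81 CPM in CD47- cells, and HLA-DMB 0.349 CPM in WT.

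**Figure D3:**
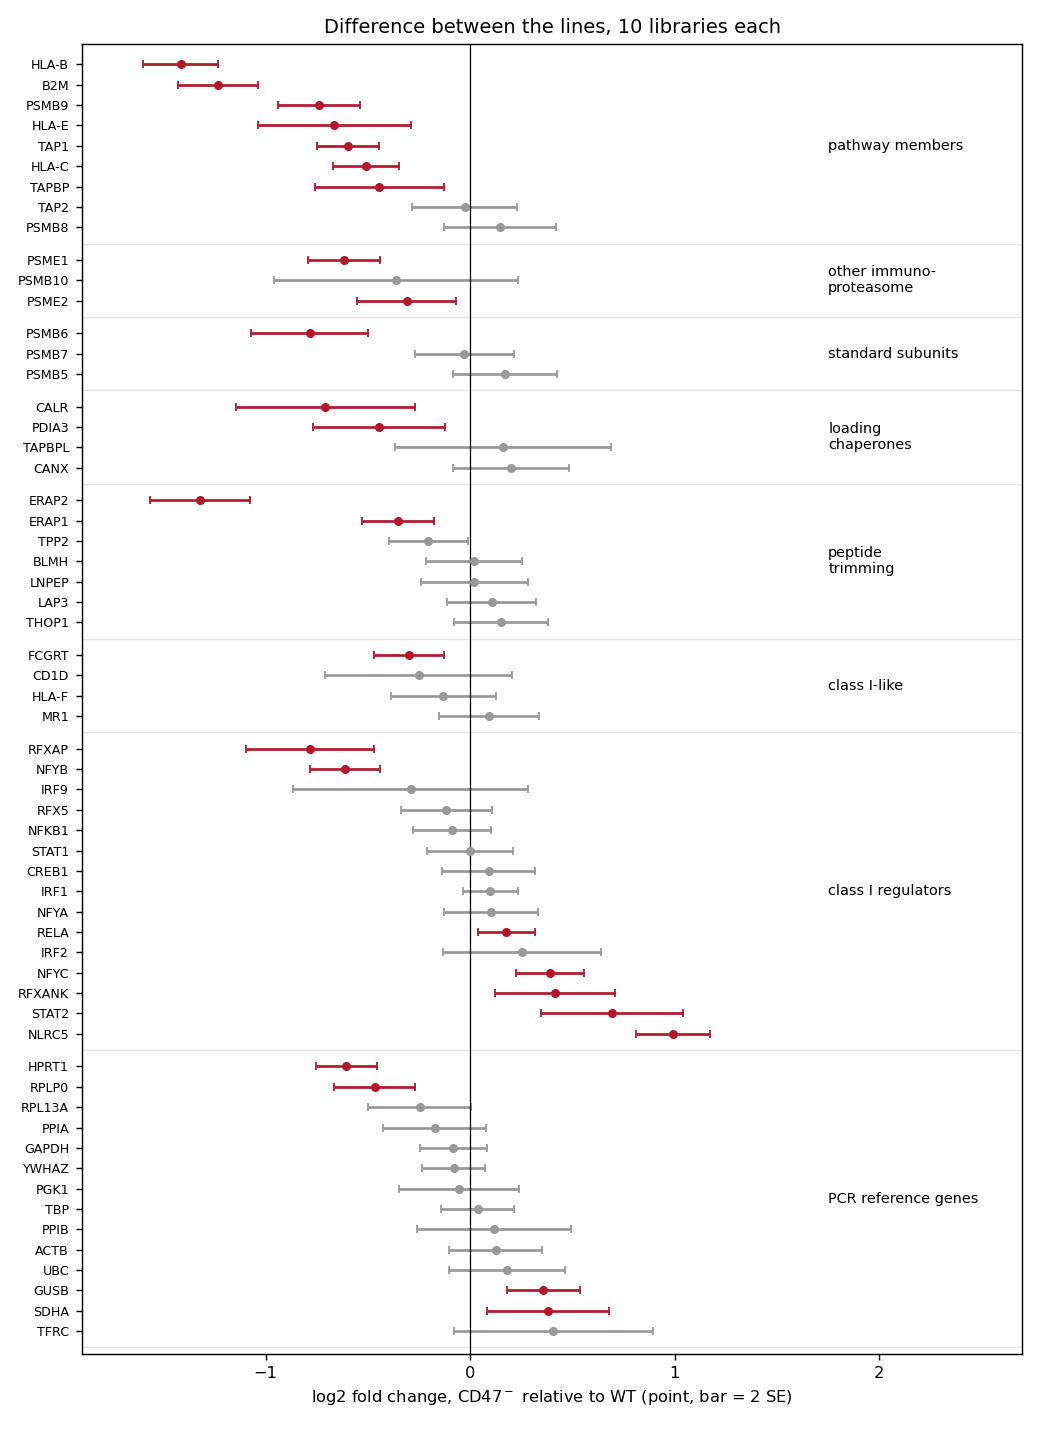
Log2 difference of CD47- relative to WT for the 9 genes and for the tested genes of 7 related lists (points, bars of 2 SE, 10 libraries per line), with genes passing an adjusted p of 0.05 in red and others in grey. The 7 red members all lie left of 0, from -0.45 for TAPBP to -1.42 for HLA-B, while red regulators lie on both sides.

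B2M was the reference gene for some of the real-time PCR in the study, and ribosomal RNA was the reference in other panels. Cells for that PCR were plated in a medium with serum, unlike the sequenced cells. The difference of B2M here was set beside those of 14 genes in common use as PCR references. Of these, HPRT1 (log2 -0.61) and RPLP0 (-0.47) were lower in CD47- cells, GUSB (0.36) and SDHA (0.38) were higher, and the other 10 did not pass the test (SDHA, ACTB and GAPDH are named here after their values were seen). The log2 difference of B2M, -1.23, was larger in size than that of any of these 14 genes, which ranged from -0.61 to 0.41. Among genes that did not pass, GAPDH had a log2 difference of -0.08 and ACTB of 0.12.

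Time was the second axis of the design, since each line was followed at 1, 3 and 6 h (4, 3 and 3 libraries). From 1 to 6 h, 7 of the 9 genes changed in WT, where 53.4% of all genes did, and 7 in CD47- cells, where 53.9% did (edgeR, adjusted p under 0.05). TAP2, TAPBP, PSMB8 and PSMB9 rose in both lines, and HLA-B, HLA-E and B2M fell in both. Of all genes, 26.8% rose and 26.6% fell in WT, and 26.4% rose and 27.5% fell in CD47- cells. HLA-C and TAP1 did not pass in either line. These shares of members are read against a background in which most genes changed with time, and untreated libraries were present at 1 h only.

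HLA-E changed most of the class I chains. In WT its 1 h values were 136 (UT), 152 (CD3_CD28), 177 (CD3_CD28_TSP1) and 153 CPM (TSP1), its 3 h values 117, 116 and 109 CPM, and its 6 h values 62.8, 68.8 and 58.3 CPM (CD3_CD28, CD3_CD28_TSP1 and TSP1). The WT values of the 3 time points did not overlap, in any treatment. In CD47- cells the 1 h values were 97.4, 83.7, 91.8 and 77.6 CPM, the 3 h values 76.4, 65.0 and 71.7 CPM and the 6 h values 54.2, 54.8 and 52.1 CPM in the same order. The decline was 2.44-fold in WT (log2 -1.28, SE 0.091, edgeR adjusted p = 5.55e-10) and 1.63-fold in CD47- cells (log2 -0.71, SE 0.090, adjusted p = 1.49e-06). The log2 difference between the lines went from -0.82 at 1 h to -0.24 at 6 h (adjusted p = 0.0472). That 6 h call was lost in 13 of the 20 fits that left out 1 library (log2 as small as -0.18, adjusted p up to 0.201), and with DESeq2 (adjusted p = 0.0631), voom (0.140), library totals (0.116) and no low-count filter (0.0839). Of the fits without 1 library, it was kept in those without WT UT, CD47- UT or CD47- TSP1 at 1 h, WT TSP1, CD47- CD3_CD28 or CD47- CD3_CD28_TSP1 at 3 h, or WT TSP1 at 6 h. The change with time differed between the lines by 0.58 (SE 0.13, edgeR adjusted p = 0.00319), and 16.4% of all genes showed such a difference (6.39% with a positive one).

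**Figure D4:**
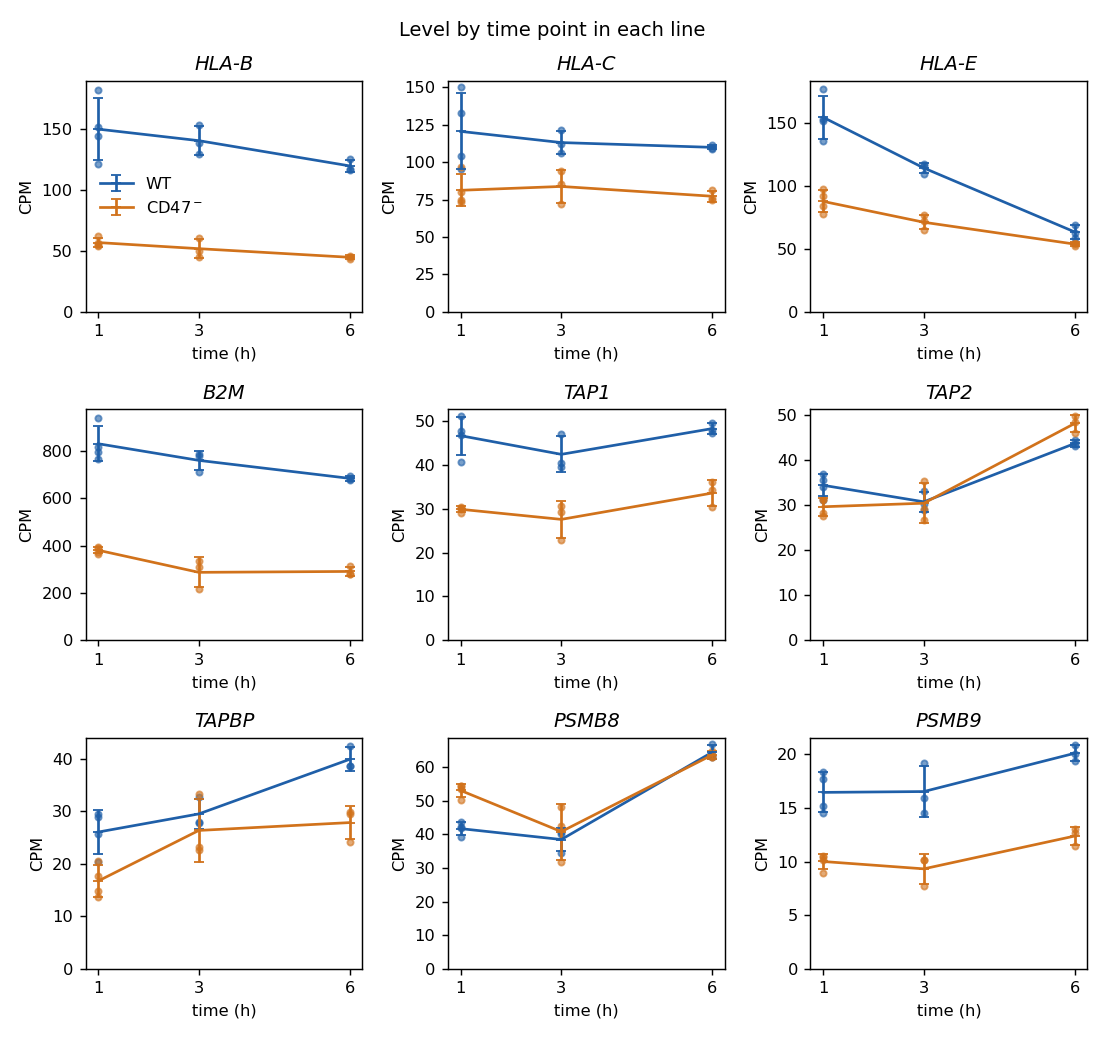
Mean level (CPM, linear axis from 0) at 1, 3 and 6 h in each line with SD bars (4, 3 and 3 libraries) and each library as a point, treatments pooled. HLA-E declines in both lines, which lie closest at 6 h, while HLA-B and B2M keep the lines apart at every time.

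B2M and HLA-B fell by smaller amounts. B2M was 831 ± 75.2 CPM at 1 h and 685 ± 9.14 CPM at 6 h in WT (SD, n = 4 and 3, log2 -0.28, edgeR adjusted p = 0.0327), and 381 ± 13.7 and 291 ± 18.2 CPM in CD47- cells (log2 -0.39, adjusted p = 0.00470). The WT call was lost without CD3_CD28 at 1 h (log2 -0.23, adjusted p = 0.0752) or without CD3_CD28 (-0.29, 0.0623), CD3_CD28_TSP1 (-0.28, 0.0777) or TSP1 (-0.29, 0.0671) at 6 h, and with voom (-0.17, 0.0818). HLA-B went from 149.6 ± 25.2 to 119 ± 5.14 CPM in WT (log2 -0.33, adjusted p = 0.0151) and from 56.7 ± 3.63 to 44.7 ± 1.48 CPM in CD47- cells (log2 -0.35, adjusted p = 0.0121). Without WT TSP1 at 6 h the WT call for HLA-B was lost (-0.31, adjusted p = 0.0527) and the number of members called in WT was 4. The difference between the lines was called for HLA-B and B2M at each time, between -1.40 and -1.44 for HLA-B and between -1.13 and -1.40 for B2M.

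PSMB8, TAP2, TAPBP and PSMB9 rose with time, and TAP1 did not pass in either line (log2 0.05 in WT and 0.17 in CD47- cells). PSMB8 rose from 41.7 ± 1.89 CPM at 1 h to 64.4 ± 2.14 CPM at 6 h in WT (SD, n = 4 and 3, log2 0.63, edgeR adjusted p = 1.21e-05), and from 53.0 ± 1.99 to 63.6 ± 1.11 CPM in CD47- cells (log2 0.26, adjusted p = 0.0231). All 4 CD47- values at 1 h (50.1 to 54.4 CPM) lay above all 4 WT values (39.1 to 43.7 CPM), and at 6 h the lines overlapped. PSMB8 was accordingly higher in CD47- cells at 1 h (log2 0.35, adjusted p = 0.00277), the only member called higher at any time. At 3 h its log2 difference was 0.09 and did not pass, but it passed without the shallow CD47- library (0.26, adjusted p = 0.00830) and with library totals (0.24, adjusted p = 0.0444). The CD47- rise was not called without TSP1 at 1 h (log2 0.24, adjusted p = 0.0618) or CD3_CD28 at 6 h (0.25, 0.0681). The difference between the lines in the change with time was -0.36 and missed the threshold (adjusted p = 0.0683). It passed without CD47- CD3_CD28_TSP1 at 3 h (-0.37, adjusted p = 0.00454) or CD47- TSP1 at 3 h (-0.36, 0.0305), and with library totals (-0.42, 0.0230).

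TAP2 rose in both lines, from 34.5 ± 2.42 to 43.8 ± 0.690 CPM in WT (SD, n = 4 and 3, log2 0.34, edgeR adjusted p = 0.00182) and from 29.7 ± 1.95 to 48.2 ± 1.88 CPM in CD47- cells (log2 0.70, adjusted p = 7.14e-07). At 1 h it was lower in CD47- cells (log2 -0.21, adjusted p = 0.0311), and at 6 h the log2 difference was 0.14 and did not pass. The 1 h call was lost without WT UT (-0.18), WT CD3_CD28 (-0.20), CD47- CD3_CD28 (-0.18) or CD47- CD3_CD28_TSP1 (-0.19), each at 1 h. It was also lost with library totals (-0.10, adjusted p = 0.421), with no low-count filter (0.113) and without the untreated libraries (0.0751). The difference in the change with time, 0.35 (adjusted p = 0.0491), passed narrowly. It was lost in 14 of 20 fits that left out 1 library (adjusted p up to 0.0991), and was kept only without WT CD3_CD28_TSP1 or CD47- UT at 1 h, or WT CD3_CD28_TSP1 or any of the 3 CD47- libraries at 3 h. It was also lost with treatment as a block (0.35, adjusted p = 0.0760), with library totals (0.30, 0.191), with no low-count filter (0.35, 0.145) and without the untreated libraries (0.35, 0.0717).

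TAPBP rose from 26.0 ± 4.16 to 39.9 ± 2.26 CPM in WT (SD, n = 4 and 3, log2 0.62, edgeR adjusted p = 0.00161) and from 16.7 ± 3.03 to 27.8 ± 3.21 CPM in CD47- cells (log2 0.74, adjusted p = 0.000379). PSMB9 rose from 16.5 ± 1.86 to 20.1 ± 0.741 CPM in WT (log2 0.29, adjusted p = 0.0349) and from 10.0 ± 0.718 to 12.4 ± 0.818 CPM in CD47- cells (log2 0.31, adjusted p = 0.0311). The PSMB9 calls were fragile. With treatment as a block they were lost in both lines (adjusted p = 0.116 in WT and 0.0544 in CD47- cells). They were also lost with voom (adjusted p = 0.102 in WT and 0.0963 in CD47- cells) and with no low-count filter (0.0971 and 0.0884). Fitted without the untreated libraries, PSMB9 in WT was at 0.25 and not called (adjusted p = 0.0971). The WT call was lost without WT UT or WT TSP1 at 1 h, WT CD3_CD28_TSP1 at 3 h, any of the WT libraries at 6 h, or CD47- TSP1 at 6 h (log2 0.21 to 0.30, adjusted p up to 0.140), and the CD47- call without TSP1 at 1 h (0.26), CD3_CD28 at 6 h (0.29) or TSP1 at 6 h (0.28).

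At 3 h fewer members differed from 1 h. HLA-E was the only member called in WT (log2 -0.44, edgeR adjusted p = 0.000616), against 36.8% of all genes (18.5% lower). In CD47- cells, where 39.3% of genes were called (18.9% higher and 20.4% lower), 4 members were: TAPBP was higher (log2 0.65), and B2M (-0.41), PSMB8 (-0.38) and HLA-E (-0.30) were lower. The shallow CD3_CD28_TSP1 library at 3 h had the lowest B2M (216 CPM against 312 and 335 CPM in the other 3 h libraries), the lowest PSMB8 (31.8 against 42.4 and 48.2 CPM) and the highest TAPBP (33.3 against 23.1 and 22.5 CPM). Without it, TAPBP was at 0.46, B2M at -0.23 and PSMB8 at -0.22, all still called, and HLA-E at -0.23 was not (adjusted p = 0.0648). HLA-E was also not called with voom (-0.22, adjusted p = 0.0607) or library totals (-0.18, 0.104).

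Between the lines, all 9 members were called at 1 h, 8 of them lower, where 48.4% of all genes were called (23.7% lower and 24.7% higher). At 3 h 6 were called, all lower, against 46.3% of genes (22.8% lower and 23.5% higher), and at 6 h 7, all lower, against 46.6% (24.1% lower and 22.5% higher). The time points share no library, and HLA-B, B2M, TAP1 and PSMB9 were lower at each of them, as were HLA-C and HLA-E with less secure calls. The HLA-E call at 6 h was lost in 13 of 20 fits without 1 library and under the 4 settings named above. HLA-C at 3 h was not called without WT CD3_CD28 (log2 -0.38, adjusted p = 0.0550) or CD47- TSP1 (-0.33, 0.0698) at 3 h, or with library totals (-0.27, 0.146). TAPBP at 6 h was not called without CD47- TSP1 at 6 h (-0.40, adjusted p = 0.0879) or with library totals (-0.46, 0.0577).

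Activation and thrombospondin-1 were the treatments under study, and no member passed the test in any of the 8 treatment contrasts (edgeR, with DESeq2 and limma voom also calling none). The contrast of CD3_CD28_TSP1 against TSP1, which has libraries at 1, 3 and 6 h in both arms, called 15 of all genes in WT (0.0919%) and 0 in CD47- cells, where 2636 genes had an unadjusted p under 0.05. Leaving out 1 library moved the WT count between 0 (without WT TSP1 at 1 h or WT CD3_CD28_TSP1 at 3 or 6 h) and 42 (without WT TSP1 at 6 h). At an unadjusted p under 0.05 there was 1 member in WT, where 816 of all 16327 genes had such a p, and 2 in CD47- cells. In WT this was HLA-E (log2 0.18, SE 0.074, unadjusted p = 0.0312 from edgeR). In CD47- cells these were TAPBP (log2 0.42, SE 0.11, unadjusted p = 0.00213) and B2M (-0.28, SE 0.10, unadjusted p = 0.0178), each with an adjusted p of 0.283. Without the shallow CD47- library B2M was at -0.11 and TAPBP at 0.31. TAPBP passed when no low-count filter was applied (log2 0.41, adjusted p = 0.0307), a setting that called 538 genes in CD47- cells.

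CD3_CD28 could be set against only 1 untreated library per line, at 1 h, which the test assumes to vary like the other libraries. At an unadjusted p under 0.05 from edgeR it gave 3 members in WT, where 1359 of all 16327 genes had such a p: HLA-B (log2 0.37), HLA-C (0.36) and TAPBP (-0.38). In CD47- cells it gave 1, TAPBP (-0.45), and 657 of all genes. None had an adjusted p under 0.576. Without WT CD3_CD28 at 1 h, TAPBP in WT was at -0.22. Adding thrombospondin-1 to activated cells gave no member in WT and TAPBP in CD47- cells (log2 0.27, adjusted p = 0.459), which was at 0.16 without the shallow library. The log2 values of the 9 genes in that contrast lay between -0.07 and 0.22 in WT and between -0.20 and 0.27 in CD47- cells. Activation effects differed between the lines at an unadjusted p under 0.05 for B2M (-0.32) and TAPBP (0.39), both with an adjusted p of 0.705 (-0.15 and 0.29 without the shallow library), and thrombospondin-1 effects for 0 members. Across all genes, each of these contrasts called 0 genes, that is 0% of those tested, and 366 to 1771 genes had an unadjusted p under 0.05. Voom called 0 genes in each and DESeq2 at most 7. Without the shallow CD47- library, 226 genes were called for CD3_CD28 against untreated in WT. For HLA-B, the member that differed most between the lines, the interval of 2 SE for added thrombospondin-1 was -0.09 to 0.29 (WT) and -0.29 to 0.11 (CD47-) on the log2 scale.

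Of the isoforms listed for these genes, 12 took at least 10% of their gene's count in either line and were compared. B2M-211 held 90.0% ± 1.86 of B2M counts in WT and 90.4% ± 0.969 in CD47- cells, and HLA-E-201, TAP2-201 and the leading isoform of PSMB9 held over 90% as well. TAP1 was divided between TAP1-201 (41.7% ± 10.4 in CD47- cells) and TAP1-205 (48.0% ± 9.85), which has no defined coding sequence. No share differed between the lines after adjustment over the 12 (two-sided permutation test of 100000 resamples). The largest difference was in HLA-B-249, at 69.2% ± 6.71 in WT and 60.9% ± 8.01 in CD47- cells (SD, n = 10 each, permutation p = 0.0217, adjusted p = 0.260). Tested as isoform counts, where 15.1% of 55450 isoforms differed between the lines, HLA-B-249 (log2 -1.59), the leading isoform of PSMB9 (-0.71) and TAP1-201 (-0.68) were lower in CD47- cells, like their genes. TAPBP-234, the leading isoform of TAPBP, did not pass (log2 -0.43, edgeR adjusted p = 0.120), unlike its gene. It passed with the matched pairs as a block (-0.46, adjusted p = 0.00635).

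Within the lines, after each line's mean was subtracted, the 9 genes did not vary together. Over 20 libraries, which share treatments and times, PSMB8 and PSMB9 had a Pearson r of 0.829, HLA-B and HLA-E 0.801, and TAP1 and PSMB9 0.754, while B2M and TAPBP had -0.923. TAP1 and TAP2 had 0.341. Of 9999 genes (log2 CPM averaging 3 or more), those most like each member by this measure belonged to no class I list. For HLA-E they were CCHCR1 (0.974), IDH2 and MAL, and for B2M they included CFDP1 (0.960) and MAPKAPK5-AS1. For PSMB8 they were GRSF1 (0.972), TIMM17A and TM7SF3. For TAP2 they were CTPS1 (0.964), NAA25 and PRPF19, for TAPBP TBC1D24 (0.958), UPF1 and PCNX3, and for PSMB9 TALDO1 (0.930), LAMTOR2 and UQCRQ. For HLA-C they were SLC25A1 (0.907), LZTS2 and NFKBIB, for HLA-B KTI12 (0.901), LEMD3 and IER2, and for TAP1 ZFAND2B (0.870), TMED4 and NDUFA7. These correlations are descriptions of 20 libraries that share a time course.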

How the data were processed

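Per the submitters' processing notes, reads were trimmed with Cutadapt 1.18, aligned with STAR 2.4.2a and quantified with RSEM 1.3.3 on GRCh38. The authors deposited the RSEM expected counts per gene and isoform, which are not normalized, and these were rounded. RSEM divides reads that fit several genes, which bears on the HLA genes. The strand setting is not given in the sources used here. The count table holds 2 columns that belong to no sample here, and these were not used. Genes were kept by filterByExpr over lines (minimum count 10, minimum total 15), scaled by TMM and tested with edgeR 4.0.16 (quasi-likelihood, R 4.3.3) with Benjamini-Hochberg adjustment at 0.05 over all genes tested. The models were line alone, line by time (treatments pooled), and line by treatment with a time term per line. DESeq2 1.42.0 and limma 3.58.1 (voom, quantile normalization), other scaling, no low-count filter, matched pairs and leaving out each library were alternatives. Libraries of the lines matched for condition deviated together (correlation 0.126 to 0.602 in 10 pairs, of which 2 correlated best with their own partner), so the pairs, which come from the labels' treatments and times, were also fitted as a block. Levels are CPM. Positions are from GENCODE v44 on the same build. The scripts were tested on simulated data. Named were the 9 genes, up to 3 of each list with the smallest p in the line difference, and the 3 genes most correlated with each member. Exceptions are marked, and some items are not reported here. The members and lists were chosen with earlier results of these data known.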

Additional observations from a re-analysis of the deposited data

Results flagged for a closer look

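The change of HLA-E from 1 to 6 h differed between the lines, which is why it is singled out. CD47- minus WT, the difference of the log2 changes was 0.58 (SE 0.13, edgeR adjusted p = 0.00319), from -1.28 in WT and -0.71 in CD47- cells. The change of TAP2 also differed, by 0.35 (SE 0.12, edgeR adjusted p = 0.0491), from 0.34 in WT and 0.70 in CD47- cells. The TAP2 call was lost in 14 of 20 fits that left out 1 library, with treatment as a block (adjusted p = 0.0760), with library totals (0.191), with no low-count filter (0.145) and without the untreated libraries (0.0717). In 36 groups of 4 or more libraries, 0 held a library far from the others by Dixon's test, which flags about 1 group in 20 by chance.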

How the results depend on the processing

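The 10 pairs of libraries as a block changed no call of a member in the line difference (HLA-E -0.60, TAPBP -0.47). With activated pairs alone, 4067 genes were called, HLA-E was at -0.68 and TAPBP at -0.31, both no longer called. With unactivated pairs alone, 2706 genes and 4 members were called, with HLA-C at -0.48, HLA-E at -0.59 and TAPBP at -0.62 no longer called and TAP2 at 0.0066. With library totals, TAPBP was at -0.33 and TAP2 at 0.082, and with upper-quartile factors TAP2 was at 0.0091. At 3 h with library totals, TAP2 was at 0.16 and TAPBP at 0.0077. At 6 h PSMB8 was at 0.0032 with DESeq2, 0.043 with voom and 0.039 with library totals. From 1 to 6 h, WT TAP1 was at -0.011 with treatment as a block and -0.013 without the untreated libraries, and CD47- HLA-C at 0.022 and 0.021. The members with a line by time difference numbered 1 under both of these and with no low-count filter. None of the uncalled values that changed sign here passed the test, and the cause of these changes was not tested.

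For activation in WT, 54 genes were called with DESeq2, 28 with voom, 9 with library totals, 201 with no low-count filter and 0 with no time term. DESeq2 called 7 (CD3_CD28 against untreated, WT), 2 (the same, CD47-), 1 (added TSP1, WT) and 4 genes (line by activation). With no low-count filter 538 genes and 1 member were called for activation in CD47- cells, 271 and 256 against untreated in WT and CD47- cells, 84 and 401 for added TSP1, and 255 and 140 for the line by activation and line by TSP1 differences. With no time term, TAPBP against untreated in CD47- cells was at 0.13. The isoform TAP2-201 was at 0.0056 with DESeq2.

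Leaving out 1 library at a time gave, for the line difference, TAP2 from -0.086 to 0.017 and TAPBP from -0.50 to -0.38. From 1 to 6 h, WT members called ranged from 4 to 7, WT TAP1 from -0.011 to 0.073 and CD47- HLA-C from -0.12 to 0.022. Between the lines, TAP2 at 3 h ranged from -0.11 to 0.069, and PSMB8 from -0.047 to 0.26 at 3 h and from -0.031 to 0.019 at 6 h. Members with a line by time difference ranged from 1 to 3. Genes called ranged from 0 to 42 for activation in WT, 0 to 226 and 0 to 6 against untreated in WT and CD47- cells, 0 to 1 for added TSP1 in CD47- cells, 0 to 9 for line by activation and 0 to 1 for line by TSP1. Each condition was sequenced once, so the treatment contrasts rest on libraries of different times.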
